A study of Helicoverpa armigera with 12 samples.

Results

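The transcriptomes of 5th instar and 1st instar larvae of the cotton bollworm *Helicoverpa armigera*, a noctuid moth whose caterpillars feed on many crops, were compared contig by contig. A contig is 1 assembled transcript sequence, and several contigs can belong to 1 unigene, the assembly's stand-in for a gene. Of 99711 contigs, 27678 contigs in 17790 unigenes had a mean of at least 1 FPKM (sequenced fragments relative to contig length and to all mapped fragments) over 12 libraries, and these were tested. The lowest mean inside this limit was 1.00008 FPKM and the highest outside it 0.999917 FPKM. The 5th instar larvae, taken on day 1 after ecdysis, gave 4 libraries of 10 whole animals each. The 1st instar larvae, taken on day 3 after hatching, gave 4 libraries of 30 whole animals each. Instar, day within the instar and pool size therefore changed together, and their parts in any difference cannot be told apart. The larvae were reared on artificial diet, and their sex is not stated. A further 4 libraries of 10 adults on day 1 after eclosion, 2 male and 2 female, entered the fit only for the estimate of spread. The libraries are labelled as replicates, and the paper describes 4 groups of animals per stage. The adults of both sexes were fitted as 1 stage, so p-values measure the spread between pools together with the difference between adult sexes.

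A caterpillar grows by feeding and sheds its cuticle at each moult under pulses of the steroid ecdysone, while juvenile hormone keeps the moult larval. In the last part of larval life the fat body, the insect counterpart of liver and adipose tissue, makes storage proteins of the hexamerin family, releases them into the haemolymph and takes them back before the pupa forms. Lepidopteran larvae also spin silk from fibroin, and the gut and fat body carry large families of proteases, lipases, cytochrome P450s and sugar-conjugating enzymes that deal with food and plant toxins.

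The libraries of 5th instar larvae were less alike than those of 1st instar larvae. Pearson's r of log2(FPKM + 1) across the tested contigs was 0.725 to 0.867 between libraries of 5th instar larvae and 0.971 to 0.977 between libraries of 1st instar larvae, as a description over contigs that are not independent. Replicate 1 of the 5th instar larvae was the closest of them to the 1st instar libraries. Its r with the 1st instar libraries was 0.711 to 0.733, against 0.612 to 0.661 for the other 5th instar libraries. Within the 5th instar, its r was 0.725 with replicate 2, 0.863 with replicate 3 and 0.787 with replicate 4. Among the other 5th instar libraries r was 0.830 to 0.867. The FPKM of a library summed to 1074573 to 1460003 in 5th instar larvae and to 1326989 to 1509632 in 1st instar larvae, and 49265 to 55652 contigs were above 0 in each of the 8 larval libraries. The number of fragments behind each value is not in the table of FPKM, so counting error could not be stated. The FPKM that 1 fragment adds, estimated from low values relative to 1st instar replicate 1, was 0.917 to 1.65 in 5th instar libraries and 1 to 1.34 in 1st instar libraries.

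At an adjusted p below 0.05, 5084 contigs (18.4%) were higher in 5th instar larvae and 6005 (21.7%) were lower, so 40.1% of the tested contigs were called by limma with Benjamini-Hochberg adjustment. Among them, 9208 (33.3% of those tested) had no overlap between the 4 libraries of each stage. Called contigs differed by a median of 1.83 where higher and of −1.63 where lower, on the log2(FPKM + 1) scale. This scale, 5th minus 1st instar larvae, is used for every difference given here, and it understates the change of low contigs. A difference over 5 was reached by 138 higher and 76 lower contigs. Without replicate 1 of the 5th instar larvae, 5095 contigs were called higher and 5566 lower. With adult males and females fitted as separate groups, 5890 were called higher and 6759 lower, and with larval libraries only 5948 and 6817. In whole bodies, fewer cells of a type and less RNA per cell cannot be told apart.

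The balance between higher and lower contigs depended on the filter and on the scale given to the libraries. With at least 1 FPKM in each larval stage, 2010 contigs were higher and 4017 lower, so 33.3% of called contigs were higher. Of the called contigs, 45.8% were higher in 5th instar larvae with FPKM as deposited, and 52.9% with each library scaled to the same sum. With the libraries scaled to their summed FPKM of cytosolic ribosomal proteins, 85.2% of the called contigs were higher (8169 higher and 1420 lower). That scaling moved the median difference of all contigs to 0.76, against 0.01 with FPKM as deposited, so list medians under it are read against 0.76.

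**Figure D1:**
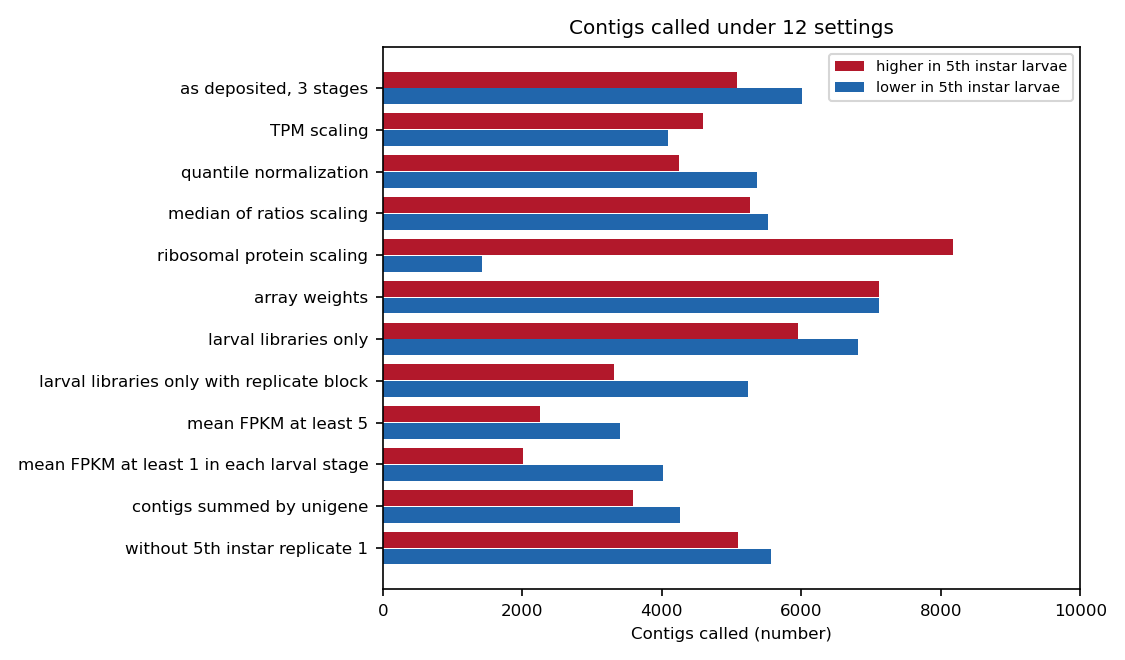
Number of contigs called higher or lower in 5th instar larvae (x axis) under 12 settings (y axis), each bar a count of contigs. The counts are 5084 and 6005 with FPKM as deposited, and 8169 and 1420 when libraries are scaled to ribosomal protein FPKM.

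Many of the contigs carried no informative description. Of those higher in 5th instar larvae, 2309 (45.4%) had one, and of those lower, 3813 (63.5%), against 15323 (55.4%) of all contigs tested. Mean FPKM reached 1 in both larval stages for 17766 contigs, only in the 5th of the larval stages for 5502 and only in the 1st for 2616. All 4 libraries of 5th instar larvae reached 1 FPKM while all 4 of 1st instar larvae were listed at 0 for 279 contigs, of which 19 were described. The opposite pattern, listed at 0 in 5th instar larvae, held for 359 contigs, of which 43 were described.

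The described contigs were grouped into 33 lists by words in their descriptions. Ribosomal, proteasome, fatty acid and DNA replication lists held mostly lower calls, and storage protein, protease inhibitor, immune and testis lists mostly higher calls. The counts for each list stand below beside the 18.4% and 21.7% of all contigs, and with no test of a list.

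**Figure D2:**
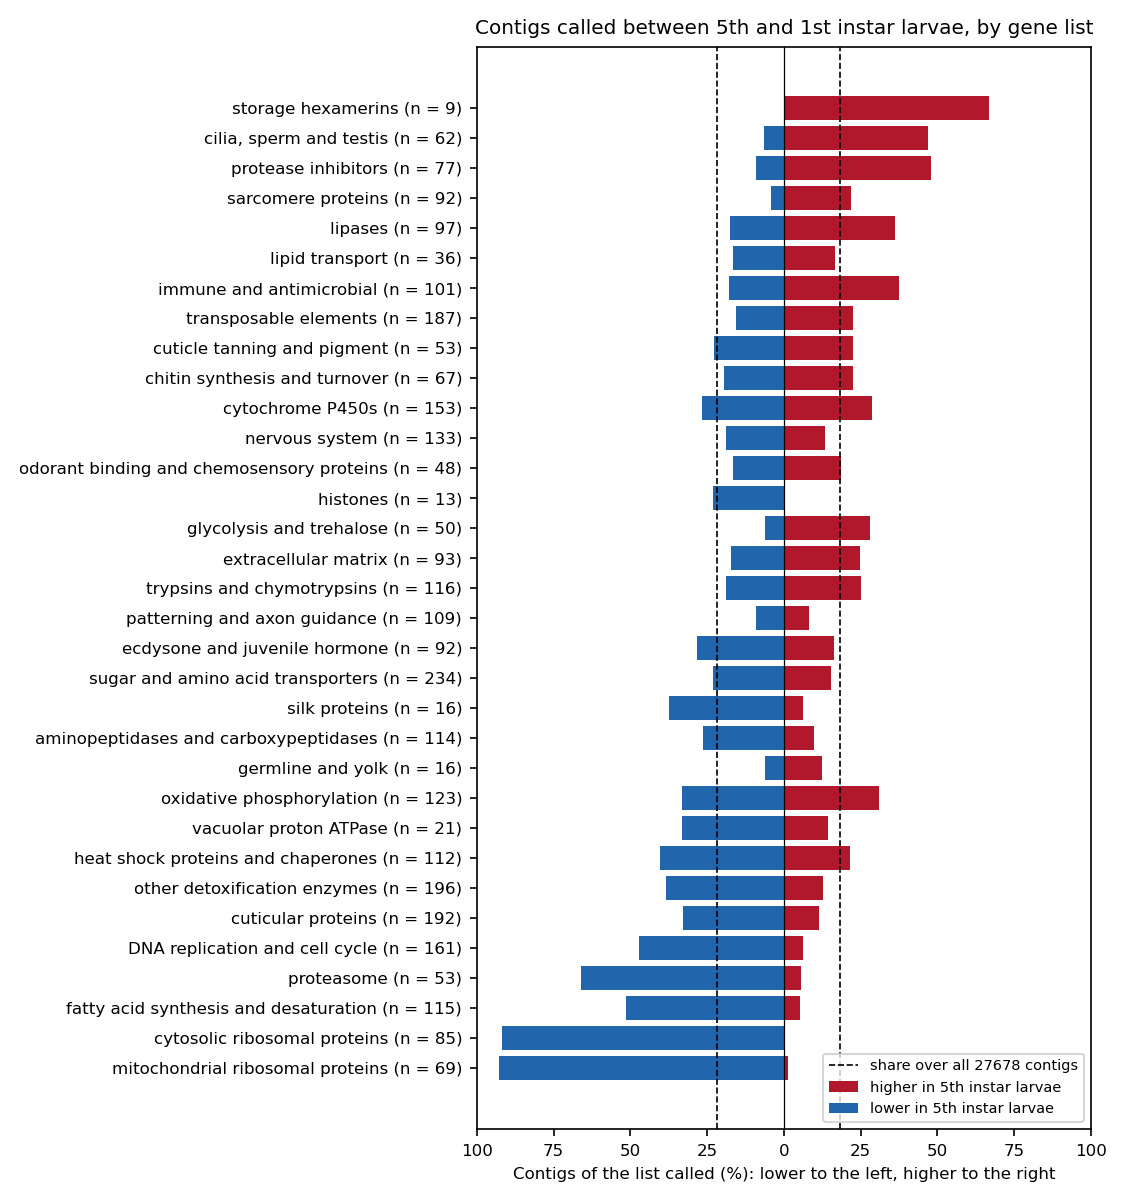
Percentage of the tested contigs of each of 33 gene lists that were called higher (right) or lower (left) in 5th instar larvae, ordered by median difference, with dashed lines at the shares over all contigs (18.4% higher, 21.7% lower). Ribosomal protein lists extend furthest to the left and storage hexamerins furthest to the right.

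Storage proteins had the highest median difference of the 33 lists. The 9 tested contigs described as hexamerins summed to 113983, 75913, 143333 and 42658 FPKM in the 4 libraries of 5th instar larvae, against 10.4, 7.64, 20.3 and 8.59 FPKM in 1st instar larvae. They took 3.97% to 9.82% of all FPKM of a 5th instar library. Of the 9, 6 were higher and none lower by limma (8 and 1 at an unadjusted p below 0.05), with a median difference of 12.67 that ranged from 12.05 to 13.18 under 4 other scalings.

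Arylphorin, a hexamerin rich in aromatic amino acids, was the contig with the greatest called difference among those without overlap and with a description from a moth or butterfly. Contig c45698_g1_i1 had 37271, 13141, 46766 and 9209.7 FPKM in 5th instar larvae, against 0.52, 0.546, 1.32 and 0 FPKM in 1st instar larvae, a difference of 13.78 ± 0.73 (SE, adjusted p = 1e-07). The 5th instar pools spanned 9209.7 to 46766 FPKM, and no library of the stages overlapped. A further arylphorin unigene had 3 contigs, among which shared reads may be split, with differences of 12.73 for c59368_g1_i1, 12.67 for c59368_g1_i2 and 13.11 for c59368_g1_i3. Hexamerine c57623_g1_i1 had 12112, 23068, 28569.9 and 8771 FPKM in 5th instar larvae, against 0.57, 0.629, 3.88 and 0.872 FPKM in 1st instar larvae (difference 12.85 ± 0.53, adjusted p = 1.21e-08).

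The methionine-rich storage protein c80837_g1_i1 was uneven among 5th instar pools. It had 1426, 236, 96.7 and 8.2 FPKM in 5th instar larvae, against 0.087, 0, 0.144 and 0.052 FPKM in 1st instar larvae (difference 6.95 ± 1.12, adjusted p = 0.000621). The remaining 3 members were not called. They were arylphorin subunit beta-like c63845_g1_i1 (2.44, adjusted p = 0.051), moderately methionine rich storage protein c48066_g1_i1 (2.89, adjusted p = 0.0791) and hexamerin 4 c62959_g2_i1 (−1.15, adjusted p = 0.0917). Hexamerin 4 had 1.12 to 3.41 FPKM in 5th instar larvae, against 5.12 to 6.5 FPKM in 1st instar larvae, so its libraries did not overlap but lay in the opposite order to the arylphorins. Without 5th instar replicate 1, the arylphorin beta-like contig passed (adjusted p = 0.0195). The members outside the naming rule are given here because the list is short, a choice made after their values were seen.

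Other haemolymph and lipid carriers did not move as 1 group. Of 36 lipid transport contigs, 6 were higher and 6 lower, with a median difference of 0.51. Very high density lipoprotein c75695_g1_i1, a storage protein described from the moth *Helicoverpa zea*, had 6274, 421, 1792 and 1007 FPKM in 5th instar larvae, against 0.706, 5.2, 5.52 and 0.351 FPKM in 1st instar larvae (8.89 ± 0.74, adjusted p = 4.6e-06). The contig described as its receptor, c58085_g1_i1, had 36.7, 7139, 432 and 471 FPKM in 5th instar larvae, against 0.074, 0, 0.24 and 0.026 FPKM in 1st instar larvae (8.81 ± 1.19, adjusted p = 0.000176). The carrier and the receptor were ordered differently among the 5th instar pools, with replicate 1 highest for the carrier and lowest for the receptor. Fatty acid-binding proteins, which carry lipids within cells, lay on both sides. Contig c47838_g2_i1 had 1159, 653, 1411 and 1591 FPKM in 5th instar larvae, against 58.8, 264, 93.3 and 9.78 FPKM in 1st instar larvae (4.17 ± 0.83, adjusted p = 0.00239). Contig c54696_g1_i1 had 1503, 804, 1649 and 3308 FPKM in 5th instar larvae, against 10409.7, 6882, 7769 and 11819 FPKM in 1st instar larvae (−2.49 ± 0.36, adjusted p = 0.000285). Heart-like fatty acid-binding protein c56352_g1_i2 had 0 to 1.23 FPKM in 5th instar larvae, against 161 to 206 FPKM in 1st instar larvae (−7.01 ± 0.26, adjusted p = 6.09e-09). With the contigs of its unigene summed, that difference was −0.50 and not called (adjusted p = 0.541).

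**Figure D3:**
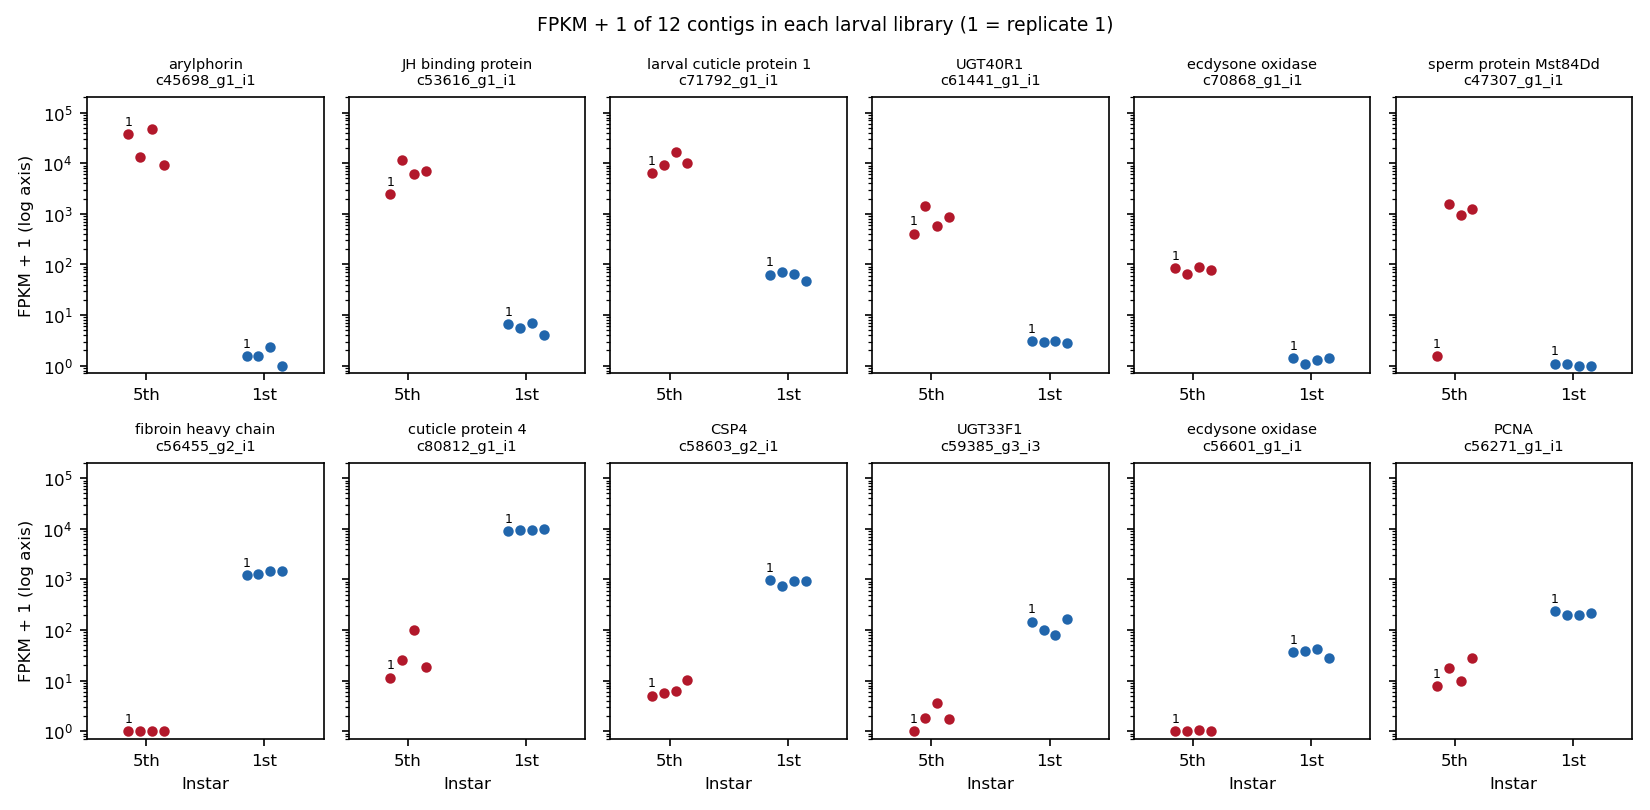
FPKM + 1 (y axis, log scale) of 12 contigs in the 4 libraries of 5th instar (left, red) and the 4 of 1st instar larvae (right, blue), 1 point per library, with replicate 1 marked. The 6 contigs of the upper row are higher and the 6 of the lower row lower in 5th instar larvae, and the contig named sperm protein Mst84Dd lies at 0.521 FPKM in 5th instar replicate 1.

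Hormone genes differed in both directions. Of 92 ecdysone and juvenile hormone contigs, 15 were higher and 26 lower, with a median difference of −0.10 (0.82 with ribosomal protein scaling). Juvenile hormone binding protein c53616_g1_i1, which carries the hormone in haemolymph, had 2451, 11579, 6144 and 6933 FPKM in 5th instar larvae, against 5.62, 4.48, 5.92 and 3.02 FPKM in 1st instar larvae (10.03 ± 1.43, adjusted p = 0.000261). Replicate 1 was the lowest of the 5th instar pools and still far above every 1st instar pool.

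Ecdysone oxidase, which converts ecdysone to 3-dehydroecdysone, is a name shared by several contigs here, and they took opposite sides. Contig c70868_g1_i1 had 84.3, 63.2, 86.4 and 77.9 FPKM in 5th instar larvae, against 0.396, 0.071, 0.276 and 0.416 FPKM in 1st instar larvae (5.93 ± 0.17, adjusted p = 9.87e-10). Contig c56601_g1_i1 had 0, 0.023, 0.081 and 0.021 FPKM in 5th instar larvae, against 35.6, 38.3, 42.0 and 27.4 FPKM in 1st instar larvae (−5.14 ± 0.20, adjusted p = 7.47e-09). The stages did not overlap for either contig, so the name was carried by a different contig in each stage. The 3-dehydroecdysone 3alpha-reductase c91295_g1_i1, which acts on the product of that oxidase, had 0.724 to 1.55 FPKM in 5th instar larvae, against 25.5 to 40.4 FPKM in 1st instar larvae (−3.998 ± 0.30, adjusted p = 1.82e-06).

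Further hormone contigs were picked after their values were seen, to show receptors, targets and breakdown. Juvenile hormone epoxide hydrolase c75686_g1_i1, which degrades juvenile hormone, had 16.2, 7.26, 14.8 and 1.21 FPKM in 5th instar larvae, against 115, 80.1, 116 and 147 FPKM in 1st instar larvae (−3.75 ± 0.53, adjusted p = 0.000246). Ultraspiracle c65471_g1_i3, the partner of the ecdysone receptor, had 9.79, 8.21, 7.7 and 6.49 FPKM in 5th instar larvae, against 2.2, 2.85, 2.71 and 2.68 FPKM in 1st instar larvae (1.32 ± 0.18, adjusted p = 0.000205). Transcription factors that answer ecdysone were on the same side. E74 c56460_g1_i1 differed by 2.19 ± 0.45 (adjusted p = 0.00274) and Broad-complex c60121_g1_i1 by 1.05 ± 0.22 (adjusted p = 0.00293). Ecdysis-triggering hormone c66215_g1_i1, the peptide that starts the shedding of the old cuticle, had 20.8, 19.1, 4.23 and 23.0 FPKM in 5th instar larvae, against 75.5, 71.5, 62.0 and 78.8 FPKM in 1st instar larvae (−2.25 ± 0.61, adjusted p = 0.0135).

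Cuticular proteins, the structural partners of chitin in the exoskeleton, held some of the widest differences in both directions. Of 192 tested contigs, 22 were higher and 63 lower, with a median difference of −0.88, which was 0.02 with ribosomal protein scaling and so below the 0.76 of all contigs. Their summed FPKM overlapped between the stages, at 124511, 45725, 141871 and 77974 FPKM in 5th instar larvae, against 69828, 70651, 67263 and 79854 FPKM in 1st instar larvae. Larval cuticle protein 1 c71792_g1_i1 had 6313, 9113, 16541 and 10282 FPKM in 5th instar larvae, against 61.4, 70.0, 62.8 and 46.3 FPKM in 1st instar larvae (7.36 ± 0.32, adjusted p = 1.99e-08). A contig of the same name, c39720_g1_i1, differed by 7.34 ± 0.32 (adjusted p = 2.09e-08), and reads of near-identical copies may be split between them. Cuticle protein 4 c80812_g1_i1 had 10.4, 24.5, 97.5 and 17.5 FPKM in 5th instar larvae, against 9044, 9602, 9652 and 9989 FPKM in 1st instar larvae (−8.47 ± 0.50, adjusted p = 2.96e-07). Cuticular protein RR-1 motif 42 c11152_g1_i1 had 28.4, 199, 213 and 59.7 FPKM in 5th instar larvae, against 3579, 5449, 4973 and 4939.9 FPKM in 1st instar larvae (−5.65 ± 0.54, adjusted p = 1.31e-05).

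The 10 greatest lower differences with a description from a moth or butterfly also held contigs with keratin-associated, filaggrin and other names. Keratin-associated protein 19-2-like c50017_g1_i1 had 7.09, 20.9, 17.9 and 64.6 FPKM in 5th instar larvae, against 2298, 1908, 1958 and 2654 FPKM in 1st instar larvae (−6.66 ± 0.49, adjusted p = 1.66e-06). Keratin associated protein c39697_g1_i1 had 0 to 0.373 FPKM in 5th instar larvae, against 229 to 398 FPKM in 1st instar larvae (−8.19 ± 0.66, adjusted p = 3.43e-06). Filaggrin-2-like c45984_g1_i1 had 0.385 to 4.08 FPKM in 5th instar larvae, against 322 to 418 FPKM in 1st instar larvae (−7.05 ± 0.52, adjusted p = 1.74e-06). These names come from the best database match, and the role of the proteins in the moth is not given by the files. That holds too for MG17 c75753_g1_i1, with 2.81 to 7.46 FPKM in 5th instar larvae, against 289.7 to 492 FPKM in 1st instar larvae (−6.23 ± 0.26, adjusted p = 1.26e-08). Ecto-nucleotidase c62958_g3_i1, of an enzyme class that cleaves extracellular nucleotides, had 0.966 to 5.24 FPKM in 5th instar larvae, against 383 to 633 FPKM in 1st instar larvae (−6.79 ± 0.34, adjusted p = 5.95e-08).

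Chitin and tanning genes were split near the background. Of 67 chitin contigs, 15 were higher and 13 lower (median 0.12), and of 53 tanning and pigment contigs, 12 were higher and 12 lower (median 0.12). Peritrophin c55907_g1_i1, a chitin-binding protein of the gut lining, had 801, 872, 1657 and 1106 FPKM in 5th instar larvae, against 76.4, 119, 94.3 and 61.6 FPKM in 1st instar larvae (3.62 ± 0.61, adjusted p = 0.000796). Chitinase c61813_g1_i2 had 0.127, 0.079, 0 and 0.181 FPKM in 5th instar larvae, against 66.3, 43.0, 49.4 and 55.7 FPKM in 1st instar larvae (−5.62 ± 0.92, adjusted p = 0.000676). Tyrosine hydroxylase c55595_g1_i1, the first enzyme of the catecholamine route to tanned cuticle, had 5.2, 1.6, 2.07 and 2.83 FPKM in 5th instar larvae, against 34.6, 42.3, 77.6 and 17.9 FPKM in 1st instar larvae (−3.39 ± 0.62, adjusted p = 0.00137). A contig described as protein yellow-like, c41683_g1_i1, of a family tied to pigment in *Drosophila*, was also lower (−3.51 ± 0.26, adjusted p = 1.75e-06).

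Silk transcripts were scarce in the 5th instar pools. The 16 silk contigs summed to 58.0, 375, 556 and 469.6 FPKM in 5th instar larvae, against 3143, 3652, 4158 and 3741 FPKM in 1st instar larvae, so the mean sum was 10.1 times lower in 5th instar larvae. Without the 3 contigs of assembly component c56455, whose names are weak, the mean sum was 363 FPKM in 5th instar larvae, against 1642 FPKM in 1st instar larvae, or 4.52 times lower, a comparison chosen after the data were seen. Of the 16, 6 were lower and 1 higher, with a median difference of −0.15 (0.38 with ribosomal protein scaling). Fibroin light chain c55089_g2_i1 had 13.3, 60.6, 133 and 60.3 FPKM in 5th instar larvae, against 1101, 1554, 1734 and 1360.1 FPKM in 1st instar larvae (−4.77 ± 0.52, adjusted p = 3.45e-05). Silk protein P25 c57725_g1_i1, which joins the fibroin chains, had 0.102, 5.32, 5.25 and 2.27 FPKM in 5th instar larvae, against 148, 155, 144 and 166 FPKM in 1st instar larvae (−5.48 ± 0.45, adjusted p = 4.03e-06). Both were picked after their values were seen, as the fibroin subunits with moth descriptions.

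The contigs of the silk list that the naming rule chose have weaker names. Contig c56455_g2_i1, listed at 0 in all 4 libraries of 5th instar larvae and at 1199, 1281, 1488 and 1438 FPKM in 1st instar larvae, is called fibroin heavy chain from Swiss-Prot while its best nr match is a bacterial sequence (adjusted p = 6.61e-12). Contig c56455_g1_i1 of the same assembly component is named after a spider fibroin and differed by −8.06 ± 0.20 (adjusted p = 2.45e-10). A sericin-like contig, c49150_g1_i2, named after the silk glue but matched to a wasp, was higher (3.05 ± 0.45, adjusted p = 0.000308). A fibroin heavy chain-like contig matched to a fly, c49294_g1_i1, had 0.127, 277, 357 and 368 FPKM in 5th instar larvae, against 8.69, 4.08, 3.85 and 10.6 FPKM in 1st instar larvae. It was not called with all libraries (adjusted p = 0.109), and passed without 5th instar replicate 1 (adjusted p = 0.000268), where it was nearly absent.

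**Figure D4:**
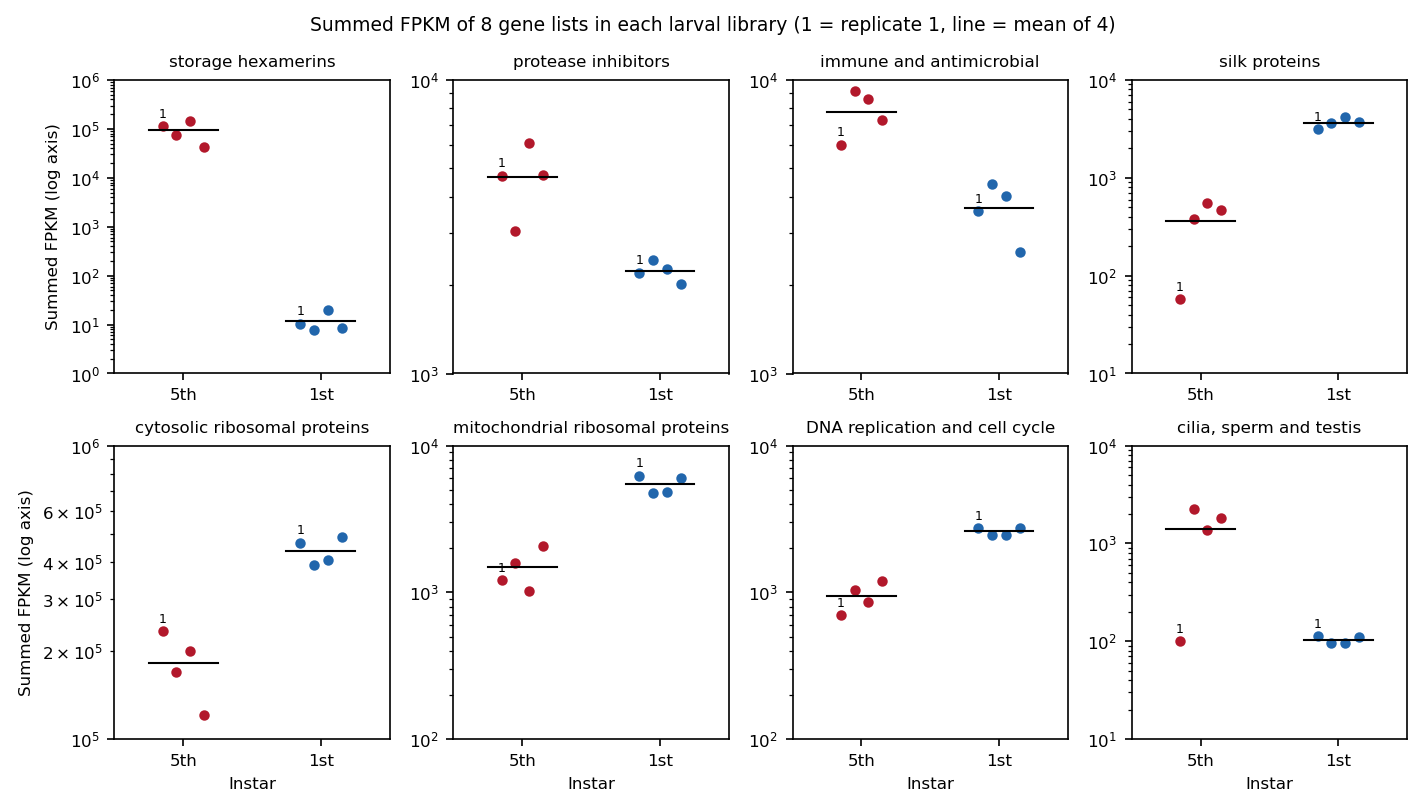
Summed FPKM (y axis, log scale) of 8 gene lists in each library of 5th instar (left, red) and 1st instar larvae (right, blue), 1 point per library with replicate 1 marked and a line at the mean of 4. Storage hexamerins sum to 42658 to 143333 FPKM in 5th instar and 7.64 to 20.3 FPKM in 1st instar larvae, and the testis list in 5th instar replicate 1 lies at the 1st instar level.

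Ribosomal proteins, the protein part of the machinery of translation, held less of the 5th instar transcriptome. Of 310 contigs described as cytosolic ribosomal proteins, 85 passed the FPKM limit, and of these 78 were lower and none higher by limma (80 and 0 at an unadjusted p below 0.05), with a median difference of −1.36. They summed to 233587, 169274, 200101 and 121003 FPKM in 5th instar larvae (11.3% to 17.4% of a library), against 467243, 391417, 408466 and 487490 FPKM in 1st instar larvae (29.5% to 32.5%). Ribosomal protein S2 c49853_g1_i1 had 2605, 701, 2102 and 726 FPKM in 5th instar larvae, against 6785, 6711, 6811 and 7794 FPKM in 1st instar larvae (−2.44 ± 0.52, adjusted p = 0.00378). A contig described as ribosomal protein L7/L12 precursor, c53478_g1_i1, had 17.5, 18.9, 19.8 and 50.5 FPKM in 5th instar larvae, against 163, 122, 117 and 158 FPKM in 1st instar larvae (−2.47 ± 0.34, adjusted p = 0.000198). It is in the list by the words of its description, and whether it is a cytosolic protein was not checked. With ribosomal protein scaling its difference was still −1.17. When the libraries were scaled to the ribosomal proteins themselves their median was −0.05 by construction, with 1 higher and 3 lower.

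Mitochondrial ribosomal proteins, which translate the mitochondrial genome, were lower by more. Of 69 tested, 64 were lower and 1 higher, with a median difference of −2.04. They summed to 1208, 1596, 1029 and 2080.3 FPKM in 5th instar larvae, against 6239, 4725, 4805 and 6057 FPKM in 1st instar larvae. Their median was still −0.75 with ribosomal protein scaling, where 6 were lower and 3 higher. The higher member was 1 contig of 39S ribosomal protein L13, c53026_g1_i2, with 6.5, 9.82, 4.21 and 22.4 FPKM in 5th instar larvae, against 0, 0, 0 and 0.13 FPKM in 1st instar larvae (3.27 ± 0.47, adjusted p = 0.000256). The other contig of that unigene, c53026_g1_i1, had 7.65, 6.7, 3.81 and 1.39 FPKM in 5th instar larvae, against 102, 68.6, 70.7 and 98.1 FPKM in 1st instar larvae (−4.005 ± 0.59, adjusted p = 0.000317), and their sum was lower by 2.44.

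DNA replication and cell cycle contigs were lower as well. Of 161 tested, 76 were lower and 10 higher, with a median difference of −0.89 (0.08 with ribosomal protein scaling, against 0.76 over all contigs). Their sum was 698, 1030.4, 857 and 1195 FPKM in 5th instar larvae, against 2738, 2455, 2463 and 2737 FPKM in 1st instar larvae. Proliferating cell nuclear antigen c56271_g1_i1, the sliding clamp of DNA polymerase, had 6.71, 16.9, 8.76 and 27.0 FPKM in 5th instar larvae, against 234, 193, 195 and 220.5 FPKM in 1st instar larvae (−3.92 ± 0.93, adjusted p = 0.00664). The lower member with the greatest difference, c54688_g1_i1, carries the name of a bacterial DNA polymerase III subunit and a bacterial best match. It was listed at 0 in 5th instar larvae and at 344 to 433 FPKM in 1st instar larvae (adjusted p = 1.03e-10), and its name is not taken here as a sign of replication. It is among the 76 lower contigs and in the sums above, with a 1st instar mean of 388 FPKM, against 2598 FPKM for the list. Histones did not share this lean. Of 13 histone contigs 3 were lower and none higher by limma, with the same counts at an unadjusted p below 0.05. The lower share, 23.1%, was near the 21.7% of all contigs. The median difference of the histones was 0.04, and 7 of the 13 differences were above 0. Among the 3 lower contigs was histone H3.3 c71017_g1_i1, picked after its values were seen. It had 155, 371, 217 and 317 FPKM in 5th instar larvae, against 475, 404, 441 and 459 FPKM in 1st instar larvae (−0.82 ± 0.27, adjusted p = 0.0307, and 0.0706 without 5th instar replicate 1).

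Proteasome contigs, the subunits of the particle that degrades ubiquitin-tagged proteins, followed the same side. Of 53 tested, 35 were lower and 3 higher, with a median of −0.93 (0.37 with ribosomal protein scaling). A regulatory subunit, c53898_g1_i3, had 0.674, 2.05, 0.618 and 1.87 FPKM in 5th instar larvae, against 24.7, 20.4, 23.7 and 15.6 FPKM in 1st instar larvae (−3.30 ± 0.44, adjusted p = 0.000158). Subunit 2-like c54910_g1_i1 was listed at 0 in replicates 1 and 3 of the 5th instar larvae and had 41.5 and 30.6 FPKM in the other 2, against 78.6 to 112 FPKM in 1st instar larvae (−4.03 ± 1.11, adjusted p = 0.014). Contigs for heat shock proteins and chaperones were split, with 24 higher and 45 lower of 112 and a median of −0.60 (0.53 with ribosomal protein scaling). Without 1st instar replicate 1 or 4, 15 were higher. Heat shock protein c60474_g1_i1 had 93.0, 19.8, 51.2 and 296 FPKM in 5th instar larvae, against 736, 841, 781 and 834 FPKM in 1st instar larvae (−3.43 ± 0.62, adjusted p = 0.00138).

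Small heat shock proteins, chaperones that hold unfolded proteins, lay on the other side within that list. Small heat shock protein c53828_g1_i1 had 7.68, 94.4, 62.1 and 62.9 FPKM in 5th instar larvae, against 0.433, 1.37, 0.276 and 0 FPKM in 1st instar larvae (4.89 ± 0.63, adjusted p = 0.000128). Small heat shock protein 22.0 c55785_g1_i1, picked after its values were seen, had 684, 912, 871 and 477 FPKM in 5th instar larvae, against 76.6, 77.97, 89.9 and 73.3 FPKM in 1st instar larvae (3.16 ± 0.33, adjusted p = 2.48e-05). Of 20 contigs with the HSP20 domain, 11 were higher and none lower by limma (15 and 1 at an unadjusted p below 0.05).

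Fatty acid synthesis was mostly lower. Of 115 contigs for fatty acid synthases, elongases, desaturases and acyl-CoA reductases, 59 were lower and 6 higher, with a median of −1.21 that stayed below 0 under 4 other scalings (−0.06 with ribosomal protein scaling). Elongase c57772_g1_i1, of the enzymes that lengthen very long chain fatty acids, had 8.3, 0.724, 2.15 and 6.83 FPKM in 5th instar larvae, against 156, 125, 118 and 135 FPKM in 1st instar larvae (−4.91 ± 0.54, adjusted p = 3.64e-05). Elongase c60357_g2_i2 had 2.85, 0.317, 0.819 and 0.661 FPKM in 5th instar larvae, against 73.5, 47.8, 27.2 and 64.3 FPKM in 1st instar larvae (−4.69 ± 0.37, adjusted p = 2.66e-06). CYP4G9 c59969_g1_i1, of a P450 family that makes cuticular hydrocarbons in *Drosophila*, had 28.5, 0.713, 8.13 and 13.3 FPKM in 5th instar larvae, against 279, 273, 249 and 226 FPKM in 1st instar larvae (−4.83 ± 0.72, adjusted p = 0.000357). Replicate 2 was the lowest of the 5th instar pools for all 3 of these contigs.

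Detoxification families held contigs with wide differences on both sides. Of 153 cytochrome P450 contigs, 44 were higher and 41 lower (median 0.09). Of 196 other detoxification contigs, 25 were higher and 75 lower, with a median of −0.74 (0.25 with ribosomal protein scaling). UDP-glycosyltransferase UGT40R1 c61441_g1_i1, of the enzymes that attach sugars to toxins and pigments, had 405, 1456, 569 and 884 FPKM in 5th instar larvae, against 2.09, 1.96, 2.06 and 1.77 FPKM in 1st instar larvae (7.96 ± 0.33, adjusted p = 1.17e-08). UGT33F1 c59385_g3_i3 had 0, 0.849, 2.62 and 0.778 FPKM in 5th instar larvae, against 145, 101, 80.5 and 167 FPKM in 1st instar larvae (−6.01 ± 0.35, adjusted p = 2.83e-07). These enzymes of 1 family thus had their high values in opposite stages, without overlap.

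The P450s had such pairs too. CYP6AE16 c63872_g3_i2 had 81.3, 39.4, 54.6 and 116 FPKM in 5th instar larvae, against 0.124, 0.416, 0 and 0.52 FPKM in 1st instar larvae (5.77 ± 0.41, adjusted p = 1.27e-06). CYP340J1 c61586_g1_i1 had 0.178, 0.6, 0.336 and 1.25 FPKM in 5th instar larvae, against 44.3, 57.6, 33.6 and 46.1 FPKM in 1st instar larvae (−4.89 ± 0.23, adjusted p = 3.74e-08). Glutathione S-transferase GSTX01 c44818_g1_i1 was lower (−4.76 ± 0.56, adjusted p = 5.92e-05), with 0 to 2.4 FPKM in 5th instar larvae, against 20.1 to 106 FPKM in 1st instar larvae.

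Digestive proteases differed in both directions while their totals overlapped. The 116 trypsin and chymotrypsin contigs summed to 134173, 50943, 131085 and 65555 FPKM in 5th instar larvae, against 104906, 104980, 104430 and 116130 FPKM in 1st instar larvae, and these sums overlapped. Replicates 1 and 3 of the 5th instar larvae lay above and replicates 2 and 4 below all 1st instar pools. Of the 116, 29 were higher and 22 lower, with a median of 0.00 that shifted in sign with the scaling. Trypsin c23866_g2_i1 had 314, 28.4, 186 and 215 FPKM in 5th instar larvae and was listed at 0 in all 4 libraries of 1st instar larvae (adjusted p = 3.11e-06). Trypsin c47767_g1_i1 had 11.8, 10.2, 8.81 and 2.15 FPKM in 5th instar larvae, against 373, 425, 379 and 447 FPKM in 1st instar larvae (−5.64 ± 0.37, adjusted p = 6.83e-07). Chymotrypsin-like protease c36691_g1_i1 had 0, 50.8, 21.1 and 3.53 FPKM in 5th instar larvae, against 191, 332, 383 and 233 FPKM in 1st instar larvae (−5.02 ± 0.93, adjusted p = 0.00156).

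Lipases leaned to the 5th instar by their calls and median, while their summed FPKM overlapped between the stages. The sums were 15953, 13605, 16904 and 10661 FPKM in 5th instar larvae, against 13796, 12959, 12952 and 14140 FPKM in 1st instar larvae. Of 97 contigs, 35 were higher and 17 lower, with a median of 0.53 that stayed above 0 under 4 other scalings. Neutral lipase c58495_g1_i7 had 60.4, 229, 253 and 276 FPKM in 5th instar larvae, against 0.111, 2.03, 0.132 and 0.143 FPKM in 1st instar larvae (6.94 ± 0.47, adjusted p = 9.26e-07). Pancreatic-type triacylglycerol lipase c57521_g1_i1 was listed at 0 in all 4 libraries of 5th instar larvae, against 22.2 to 49.99 FPKM in 1st instar larvae (adjusted p = 1.66e-08). Of 114 aminopeptidase and carboxypeptidase contigs, 11 were higher and 30 lower, with a median of −0.19 (0.70 with ribosomal protein scaling).

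Protease inhibitors, which restrain serine proteases in haemolymph and gut, were mostly higher. Of 77 contigs, 37 were higher and 7 lower, with a median of 0.92 that stayed above 0 under 4 other scalings. They summed to 4718, 3055, 6112 and 4756 FPKM in 5th instar larvae, against 2208, 2444, 2278 and 2018 FPKM in 1st instar larvae. Serine protease inhibitor 8 c56888_g1_i1 had 324, 137, 592 and 635 FPKM in 5th instar larvae, against 0, 0.048, 0.108 and 0.065 FPKM in 1st instar larvae (8.42 ± 0.52, adjusted p = 3.94e-07). An immune reactive putative protease inhibitor, c36927_g1_i1, lay on the other side, with 0.699, 18.7, 6.91 and 3.12 FPKM in 5th instar larvae, against 101, 90.3, 68.5 and 72.8 FPKM in 1st instar larvae (−3.85 ± 0.56, adjusted p = 0.000319).

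Immune genes leaned the same way as the inhibitors. Of 101 immune and antimicrobial contigs, 38 were higher and 18 lower, with a median of 0.42 that stayed above 0 under 4 other scalings. Their sum was 6029, 9159, 8600.3 and 7293 FPKM in 5th instar larvae, against 3575, 4429, 4013 and 2584 FPKM in 1st instar larvae. C-type lectin 2 c57034_g1_i2, of the lectins that bind microbial sugars, had 167, 131, 169 and 149 FPKM in 5th instar larvae, against 1.3, 0.926, 0.66 and 0.69 FPKM in 1st instar larvae (6.36 ± 0.18, adjusted p = 7.24e-10). Another C-type lectin, c54193_g1_i1, had 16.9, 2.52, 10.2 and 10.5 FPKM in 5th instar larvae, against 203, 169, 199 and 221 FPKM in 1st instar larvae (−4.38 ± 0.50, adjusted p = 4.63e-05). Lysozyme-like protein 1 c62168_g1_i1, of a family that cleaves bacterial cell walls, differed by 5.76 ± 1.00 (adjusted p = 0.001). Cecropin 2 c67306_g1_i1, an antibacterial peptide, had 0, 0.747, 0 and 0.661 FPKM in 5th instar larvae, against 14.2, 19.9, 40.6 and 19.4 FPKM in 1st instar larvae (−4.13 ± 0.31, adjusted p = 1.9e-06). Hemolymph proteinase 18 c58608_g1_i1, named after a protease of *Manduca sexta* blood, had 922, 1781, 2149 and 1354 FPKM in 5th instar larvae, against 4.59, 7.99, 3.67 and 4.16 FPKM in 1st instar larvae (7.97 ± 0.98, adjusted p = 8.46e-05). Also among the 10 greatest higher differences was a contig named IMP dehydrogenase/GMP reductase, c72973_g1_i1, an enzyme class of guanine nucleotide synthesis. It had 64.4, 177, 352 and 341 FPKM in 5th instar larvae and was listed at 0 in all 4 libraries of 1st instar larvae (adjusted p = 3.52e-07).

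Small carriers of odours and other hydrophobic ligands included some of the widest gaps. Of 48 odorant binding and chemosensory contigs, 9 were higher and 8 lower (median 0.08). Their sum was higher in every 5th instar library. It was 5807, 17363, 7797 and 8623 FPKM in 5th instar larvae, against 2874, 2568, 2826 and 2790 FPKM in 1st instar larvae. Odorant-binding protein-2 c53380_g1_i1 had 596, 864, 291 and 665 FPKM in 5th instar larvae, against 7.33, 3.86, 4.16 and 9.34 FPKM in 1st instar larvae (6.37 ± 0.34, adjusted p = 1.19e-07). Most calls among odorant-binding proteins were in the opposite direction, since of 41 contigs with their domain 2 were higher and 15 lower. Of 25 contigs with the chemosensory protein domain, 6 were higher and 4 lower, and the 3 named here were lower. CSP4 c58603_g2_i1 had 4.08, 4.79, 5.14 and 9.38 FPKM in 5th instar larvae, against 969, 750.2, 932 and 927 FPKM in 1st instar larvae (−7.08 ± 0.37, adjusted p = 9.42e-08). Sensory appendage protein 3 c41022_g1_i1 differed by −7.47 ± 0.51 (adjusted p = 9.26e-07) and putative chemosensory protein c47093_g1_i1 by −6.93 ± 0.53 (adjusted p = 2.24e-06).

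Contigs of cilia, sperm and testis divided the 5th instar pools among themselves. The 62 tested contigs summed to 101, 2261, 1377 and 1826 FPKM in 5th instar larvae, against 112, 95.3, 96.8 and 111 FPKM in 1st instar larvae, so replicate 1 of the 5th instar larvae lay within the range of the 1st instar pools. Adult males had 468 and 578 FPKM for the list, and adult females 136 and 138 FPKM. With all libraries 29 of the 62 were higher and 4 lower (median 1.38), and without 5th instar replicate 1 there were 37 higher and 4 lower. Leaving out any 1 of the other 7 larval libraries left 10 to 12 higher. A contig named after male-specific sperm protein Mst84Dd, a sperm tail protein in *Drosophila*, was c47307_g1_i1. It had 0.521, 1568, 950.3 and 1238 FPKM in 5th instar larvae, against 0.087, 0.095, 0 and 0 FPKM in 1st instar larvae (7.78 ± 1.76, adjusted p = 0.00512). Its name is weak, since it comes from Swiss-Prot while the best nr match is from *Helobdella robusta*, which is not an insect. Sperm surface protein Sp17 c54583_g1_i3 lay on the other side, with 0.165 to 0.394 FPKM in 5th instar larvae, against 6.25 to 8.63 FPKM in 1st instar larvae (−2.68 ± 0.18, adjusted p = 9.61e-07).

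The same pattern reached far beyond that list. Below 1 FPKM in every 1st instar library and in 5th instar replicate 1, but at 1 FPKM or more in 5th instar replicates 2, 3 and 4, were 1515 contigs, of which 1187 were called higher. They make up 23.3% of all contigs called higher in 5th instar larvae. The same rule applied to replicates 2, 3 and 4 in place of replicate 1 gave 387, 130 and 217 contigs. The 1515 contigs summed to 158, 34345, 20525.9 and 29745 FPKM in the 5th instar libraries. Both adult male libraries lay above both female libraries for 1077 of them, against 41 for the reverse. For the 387, 130 and 217 contigs these counts were 107, 35 and 82, against 32, 20 and 22 for the reverse. The share over all tested contigs is not given here, so the counts have no background beside them. The rule that picked these contigs was set after the values were seen and describes the libraries. Sex is not labelled for the larval pools, and the stated day is the same for all pools of an instar. The part of sex, or of any difference in age among pools, in these values was not tested.

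Members of other lists share this pattern, which touches their calls. Succinate dehydrogenase c50545_g1_i1, an enzyme of the respiratory chain, had 0.064, 189.6, 119 and 138 FPKM in 5th instar larvae, against 0.025, 0.059, 0 and 0 FPKM in 1st instar larvae (5.39 ± 1.71, adjusted p = 0.0262 and 0.00148 without replicate 1). Its call was lost without any 1 of the other 7 larval libraries (adjusted p of 0.0551 to 0.0709). Mitochondrial chaperonin c46357_g1_i1 had 0.038, 91.3, 45.7 and 66.4 FPKM in 5th instar larvae and was listed at 0 in all 4 libraries of 1st instar larvae (adjusted p = 0.0145). Of 123 oxidative phosphorylation contigs 38 were higher and 41 lower, with a median of −0.42 (0.83 with ribosomal protein scaling). The sum of that list was lower in every 5th instar library, at 44805 to 62176 FPKM, against 68849 to 84459 FPKM in 1st instar larvae. The count of higher contigs was 41 without 5th instar replicate 1 and 10 to 20 without any 1 of the other larval libraries.

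Muscle contigs leaned to the 5th instar by their median and sum, while the share called higher was near that of all contigs. Of 92 sarcomere contigs, 20 were higher (21.7%, against 18.4% of all contigs) and 4 lower (4.35%, against 21.7%). Their median was 0.55 and stayed above 0 under 4 other scalings (1.65 with ribosomal protein scaling, against 0.76 over all contigs). Their sum was 19986 to 28106 FPKM in 5th instar larvae, against 15673 to 18388 FPKM in 1st instar larvae. The count of higher contigs was 16 without 5th instar replicate 1 and 11 to 12 without 5th instar replicate 3 or any 1 of the 1st instar libraries. Titin-like protein c53280_g1_i4, a molecular spring of muscle, had 63.6, 46.4, 148 and 13.9 FPKM in 5th instar larvae, against 7.85, 9.33, 5.99 and 2.12 FPKM in 1st instar larvae (2.93 ± 0.69, adjusted p = 0.00612). Troponin C c50322_g1_i1, the calcium sensor of the thin filament, had 14.9, 37.6, 31.1 and 5.32 FPKM in 5th instar larvae, against 87.0, 65.9, 61.9 and 82.3 FPKM in 1st instar larvae (−1.99 ± 0.47, adjusted p = 0.00633). Of 93 extracellular matrix contigs, 23 were higher and 16 lower, with a median of 0.00 whose sign shifted with the scaling. Laminin subunit alpha c43082_g1_i2, of the basement membrane, had 94.0, 54.0, 103 and 121 FPKM in 5th instar larvae, against 2.76, 5.96, 6.16 and 3.73 FPKM in 1st instar larvae (4.05 ± 0.60, adjusted p = 0.000353).

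Sugar metabolism and transport held wide differences on both sides. Of 50 glycolysis and trehalose contigs, 14 were higher and 3 lower (28% and 6%), with a median of 0.03. Their sum was lower in every 5th instar library, at 2739 to 3796 FPKM, against 4171 to 5035 FPKM in 1st instar larvae. The greatest higher difference by the naming rule was that of pyruvate kinase c62227_g1_i1, nearly absent in 5th instar replicate 1. It had 0.038, 34.9, 10.8 and 32.4 FPKM in 5th instar larvae and was listed at 0 in every 1st instar library (3.46 ± 0.87, adjusted p = 0.00909). Trehalose 6-phosphate synthase c55224_g1_i1, which makes the blood sugar of insects, had 26.2, 24.9, 27.3 and 10.97 FPKM in 5th instar larvae, against 3.6, 4.62, 5.35 and 3.23 FPKM in 1st instar larvae (2.11 ± 0.40, adjusted p = 0.00167). Glycogen synthase c62532_g1_i2 had 2.67, 2.03, 0.591 and 0.8 FPKM in 5th instar larvae, against 13.3, 25.01, 19.1 and 22.8 FPKM in 1st instar larvae (−3.11 ± 0.61, adjusted p = 0.00216). Of 234 sugar and amino acid transporter contigs, 36 were higher and 54 lower, with a median of −0.15 (0.74 with ribosomal protein scaling). A trehalose transporter, c57021_g1_i1, was higher (3.89 ± 0.73, adjusted p = 0.00161), and the sugar transporter SWEET1-like c60312_g1_i1 had 4.69, 6.75, 4.02 and 7.58 FPKM in 5th instar larvae, against 43.4, 46.6, 37.6 and 51.5 FPKM in 1st instar larvae (−2.78 ± 0.24, adjusted p = 5.32e-06).

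The remaining lists were split. Of 21 contigs of the vacuolar proton ATPase, which energizes the gut membrane, 3 were higher and 7 lower (median −0.53, and 0.78 with ribosomal protein scaling), and its 16 kDa subunit c24570_g1_i1 had 783, 239, 646 and 549.9 FPKM in 5th instar larvae, against 1226, 1178, 1205 and 1281 FPKM in 1st instar larvae (−1.26 ± 0.31, adjusted p = 0.00855, a difference that was 0.05 with ribosomal protein scaling). Of 133 nervous system contigs, 18 were higher and 25 lower (median 0.08, and −0.03 with quantile normalization). Among them was the precursor of the diapause hormone and the pheromone biosynthesis activating neuropeptide, c21701_g1_i1, with 0 to 0.781 FPKM in 5th instar larvae, against 6.22 to 9.55 FPKM in 1st instar larvae (−2.67 ± 0.24, adjusted p = 7.35e-06). Of 109 patterning and axon guidance contigs, 9 were higher and 10 lower, below the share of calls over all contigs, with a median of −0.02 whose sign shifted with the scaling. Of 16 germline and yolk contigs 2 were higher and 1 lower, and of 187 contigs described as transposable elements 42 were higher and 29 lower (median 0.29).

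**Figure D5:**
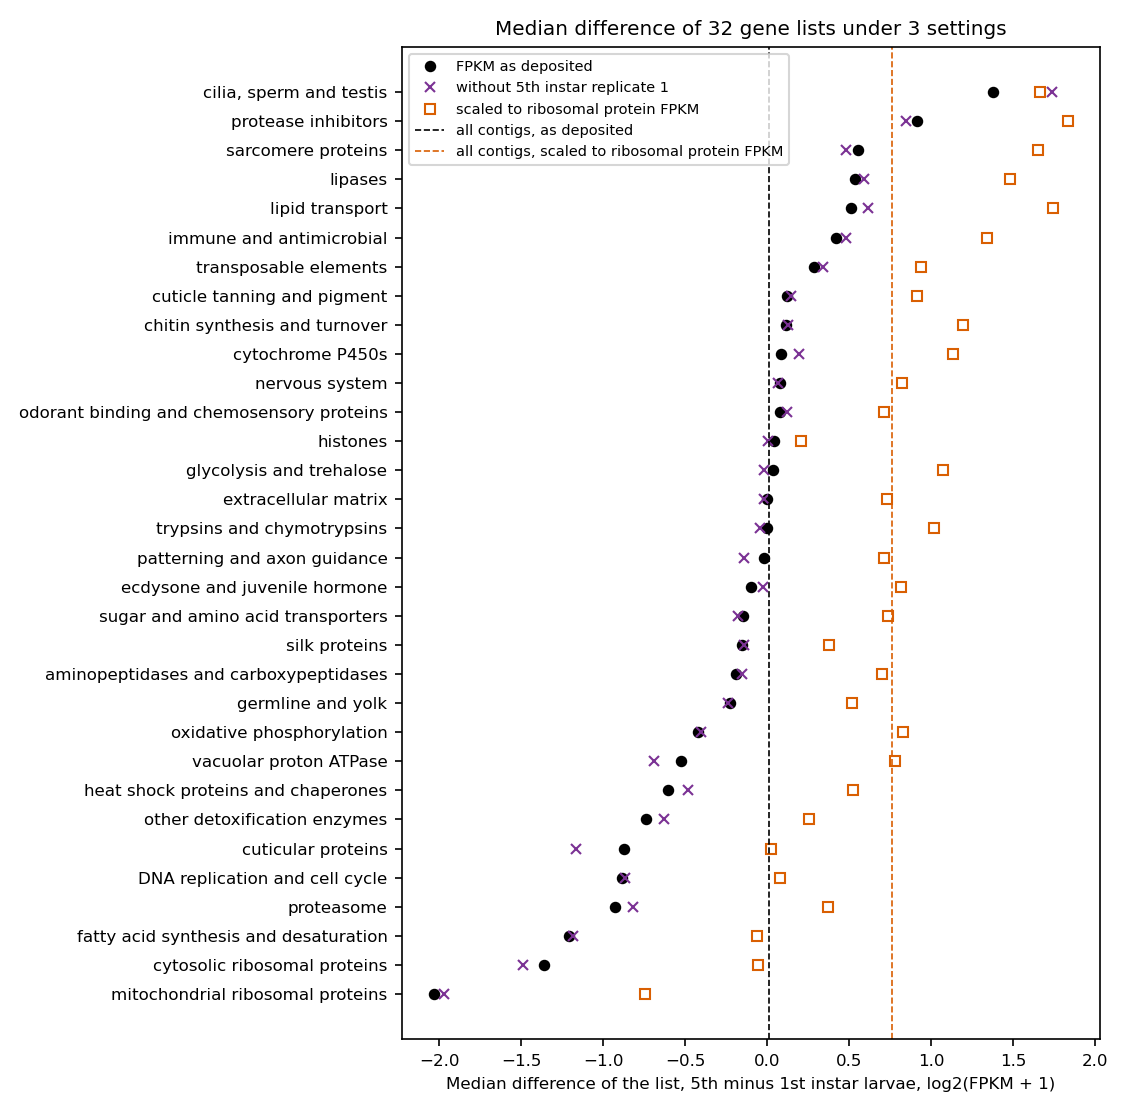
Median difference of 32 gene lists, 5th minus 1st instar larvae, on the log2(FPKM + 1) scale (x axis), for FPKM as deposited (circles), without 5th instar replicate 1 (crosses) and with libraries scaled to ribosomal protein FPKM (squares), with dashed lines at the medians over all contigs (0.01 and 0.76). Storage hexamerins, at 12.67, are left out, and mitochondrial ribosomal proteins stay below 0 in all 3 settings.

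Contigs of 1 unigene did not always move together. Of 5532 unigenes with more than 1 tested contig, 1473 had more than 1 contig called without overlap, and in 222 of these (15.1%) contigs were called in opposite directions. In 60 of them the contigs differed by over 2 each way. An angiotensin converting enzyme unigene, c60051_g1, picked after its values were seen, is 1 such case. Its contig c60051_g1_i1 had 217, 62.5, 258 and 185 FPKM in 5th instar larvae, against 2.07, 12.3, 2.29 and 0.208 FPKM in 1st instar larvae (5.49 ± 0.71, adjusted p = 0.000123). Its contig c60051_g1_i2 had 1.00, 36.7, 1.26 and 2.52 FPKM in 5th instar larvae, against 41.9, 41.8, 49.8 and 48.1 FPKM in 1st instar larvae (−3.22 ± 1.13, adjusted p = 0.0399, and 0.0982 without 5th instar replicate 1). The files do not tell whether such contigs are splice forms, alleles or copies of a gene, and the authors' estimate divides shared reads between them.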

How the data were processed

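Poly(A) RNA of whole bodies was sequenced as paired-end Illumina reads in 12 libraries. The deposited FPKM were made by the authors, who trimmed reads, assembled contigs with Trinity, mapped the reads with Bowtie 0.12.7 and estimated abundance with RSEM 1.1.17. The values hold no counts, and the number of fragments per library was not used here. The contigs with a mean of at least 1 FPKM were fitted in limma 3.58.1 (R 4.3.3) on log2(FPKM + 1) with an intensity trend, 3 stages and Benjamini-Hochberg adjustment over all 27678, at a threshold of 0.05. Scalings, filters, pseudocounts of 0.1 and 0.01, spread models, a replicate block, unigene sums and single libraries left out were tried as alternatives.

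The members and the 33 lists were chosen with earlier results of these data known. The lists search words in the nr description, or in Swiss-Prot where that is uninformative, and excluding words were added after the descriptions were read. The contigs named by rule are up to 2 per list and direction, and the 10 greatest differences per direction with a lepidopteran match, all called and without overlap, 1 per unigene and, for the 10, 1 per description. Others were picked after their values were seen. In data simulated on the 27678 contigs, 72% of contigs changed by 2 and 83% of those changed by 3 on the log2 scale were recovered. Only 200 contigs were changed, all with a mean log2(FPKM + 1) above 2, and each contig had the same normal spread in every stage. The 5th instar libraries were less alike than the 1st, so these rates need not hold for the data, least of all for low contigs. Replicate numbers did not pair the larval libraries.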

Additional observations from a re-analysis of the deposited data

Results flagged for a closer look

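In 247 groups of 4 libraries (sums of lists and contigs named in the text), 18 held a library far from the other 3 by Dixon's criterion, where chance at 1 in 20 would give 12.35. That number assumes normal values and independent groups. The sums hold some of the named contigs, and some groups lie at or near 0 FPKM, so it is only a rough guide. The values follow with the nearest of the other 3 libraries, and no cause was tested.

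Among 5th instar larvae, transposable element contigs summed to 2728 FPKM in replicate 4, against 1108 in the next library. Polyprotein contigs such as c91089_g1_i1, at 381 FPKM in replicate 4 and 0 to 0.038 FPKM in the other larval libraries, took part in that sum. Replicate 2 was high for the VHDL receptor c58085_g1_i1 (7139 FPKM, next 471), the angiotensin converting enzyme contig c60051_g1_i2 (36.7, next 2.52) and arylphorin beta-like c63845_g1_i1 (58.1, next 3.99). Replicate 1 was high for the methionine-rich storage protein c80837_g1_i1 (1426, next 236). Replicate 3 was high for storage protein c48066_g1_i1 (123, next 7.18) and cuticle protein 4 c80812_g1_i1 (97.5, next 24.5). Replicate 4 was high for ribosomal protein L7/L12 c53478_g1_i1 (50.5, next 19.8) and low for trehalose 6-phosphate synthase c55224_g1_i1 (10.97, next 24.9).

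Among 1st instar larvae, replicate 4 was highest for the sum of trypsins and chymotrypsins (116130 FPKM, next 104980), the sum of heat shock proteins and chaperones (15907, next 14057) and ribosomal protein S2 c49853_g1_i1 (7794, next 6811). Replicate 3 was lowest for the sum of sugar and amino acid transporters (2926, next 3086). Near 0, replicate 3 stood apart for hexamerine c57623_g1_i1 (3.88, next 0.872) and arylphorin c59368_g1_i1 (2.88, next 0.52). Replicate 2 did so for neutral lipase c58495_g1_i7 (2.03, next 0.143), replicate 1 for sericin-like c49150_g1_i2 (0.211, next 0) and replicate 4 for 39S ribosomal protein L13 c53026_g1_i2 (0.13, next 0).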

How the results depend on the processing

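Of the 130 contigs named by the rule, 95 kept their call under every alternative, and over all alternatives 2810 single-contig values stayed on their side, 105 lost the call and 6 changed sign. The count of higher and lower contigs and their balance moved more. With no filter (97214 contigs), 9029 were lower and 40.4% of calls were higher. At a mean of at least 5 FPKM (11435 contigs), 2252 were higher and 3401 lower, with a median of −0.17 and 39.8% of calls higher. With at least 1 FPKM in each larval stage (17911 contigs), so that no contig passed through 1 stage alone, 2010 were higher, with a median of −0.16 and 33.3% of calls higher. Scaling to equal sums gave a median of 0.10 and 52.9% higher, quantile normalization a median of −0.026 and median of ratios 0.045. Ribosomal protein scaling gave 8169 higher, 1420 lower, a median of 0.76 and 85.2% higher. Array weights, which were 0.332 to 1.15 for 5th and 2.98 to 4.44 for 1st instar libraries, gave 50.01% higher.

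Leaving out each larval library in turn gave 3692 to 5095 higher, 4897 to 5841 lower, medians of 0 to 0.0190 and 42.3% to 47.8% higher. Deviations of larval libraries that share a replicate number were correlated at −0.100 to 0.0765, so the numbers do not pair them. With the replicate block in the larval libraries, 3313 were higher and 38.8% of calls were higher. Unigene sums turned c53026_g1_i2 to −2.44, c63756_g1_i2 to −0.32 and c58999_g1_i2 to −0.41, since the other contigs of the unigene outweigh them. They also ended the call of 5 contigs, among them c56352_g1_i2 at −0.50 (adjusted p = 0.541). Ribosomal protein scaling turned c52632_g1_i1 to 0.42, c58561_g1_i2 to 0.28 and c24570_g1_i1 to 0.046. Twitchin-like c40207_g1_i1 lost its call without 5th instar replicate 1 (adjusted p = 0.125). Since the fragments behind a value are not given in the table, a value of 0 or near it cannot be told from a transcript missed by sampling.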

Other observations

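Pfam domains gave a view that does not rest on the word lists. Of 256 domains with at least 20 tested contigs, those named here were picked after their values were seen and no test was made. Galactoside-binding lectin domains, which recognise sugars on cell surfaces and microbes, were higher in 5th instar larvae in 16 of 20 contigs and lower in none by limma, also at an unadjusted p below 0.05 (median difference 1.53). C-type lectin domains were higher in 25 and lower in 7 of 49 (1.46), serpins higher in 18 and lower in 1 of 31 (0.97), and glycoside hydrolase family 1 higher in 12 and lower in 1 of 33 (0.99). The zinc finger of nuclear receptors was higher in 12 of 22 contigs and lower in none by limma, with 2 lower at an unadjusted p below 0.05 (0.94), several of them contigs of the same unigenes. The lower end held the elongase domain, lower in 31 and higher in 3 of 39 (−1.64), UDP-glycosyltransferases, lower in 33 and higher in 4 of 67 (−1.64), and the membrane domain of ABC transporters, lower in 19 and higher in 2 of 36 (−0.96). DEAD box helicases, which unwind RNA, were lower in 46 of 86 and higher in none by limma, with 1 higher at an unadjusted p below 0.05 (−0.92), and RNA recognition motifs were lower in 97 and higher in 25 of 208 (−0.73).

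Setting adults beside the larvae, 1562 contigs reached a mean of 1 FPKM only in 1st instar larvae of the 3 stages, of which 1407 were called lower in 5th instar larvae, and 1756 only in 5th instar larvae, of which 1273 were called higher. Both groups were chosen by their larval values, so these counts describe them.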
